A study of Mus musculus with 37 samples.

Results

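Mice that had been defeated on 10 days were compared with mice that had then been left undisturbed for 1 week, and the change over that week was compared between spleen and bone marrow. The measure was the difference of the steps on the log2(value + 1) scale: rested minus 10 defeats in spleen, minus rested minus 10 defeats in marrow. The libraries were chosen by their labels, and 19 of the 37 in the series entered: spleen after 10 defeats (6 libraries) and after 10 defeats and rest (4), and marrow after 10 defeats (5) and after 10 defeats and rest (4). A positive difference means that the rested week moved a gene further up, or less far down, in spleen than in marrow.

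All mice were wild-type C57BL/6N, and each defeat was 1 social confrontation per day. Control mice, of which 4 spleens and 3 marrows are used below as a reference level, were not defeated. Marrow was flushed from the femur and spleen was taken whole, so every library is RNA of a mixed tissue, and a lower level can come from fewer cells of a type or from less RNA per cell, which cannot be told apart here. The labels call the libraries biological replicates but do not say which spleen and which marrow came from the same mouse, nor give the animals' age or housing.

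Bone marrow is the main site of blood formation in adult mice, and the red pulp of the mouse spleen is a reserve site that takes up the production of red cells and granulocytes under stress. Erythroid precursors depend on the transcription factor GATA1 and on the receptor of erythropoietin, load their haemoglobin with haem made in the mitochondria and the cytosol, and divide rapidly while they mature. Neutrophils are stored in marrow in large numbers, carry granule proteins such as lactoferrin, and make the attractant leukotriene B4 from arachidonic acid.

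The tissue labels matched the spleen markers and, of the marrow markers, Mpo and Elane. The spleen genes Ccl21a, Tlx1 and Nkx2-5 were at 0 in all 9 marrow libraries, while Ccl21a, a lymph node and spleen chemokine, was between 47.2 and 534 in the 10 spleens. Mpo, a granule peroxidase of marrow precursors, was between 780 and 1541 in marrow and between 21.1 and 107 in spleen. Elane was between 621 and 1552 in marrow and between 21.5 and 273 in spleen. The other marrow genes looked at, Ctsg, Vpreb1a, Igll1 and Bglap, overlapped between the tissues. Ctsg, for example, reached 238 in spleen and began at 208 in marrow. The values are scaled abundances without a stated unit, so levels are compared between libraries and not between genes.

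A set of 5 spleen libraries stood apart: 4 of the 6 after 10 defeats (D6, D7, D9 and D10) and 1 of the 4 rested (D2). Against the unstressed spleens their values fell with transcript length by 0.163 to 0.179 log2 units per doubling, while the other 5 spleens had slopes between -0.0987 and -0.0001 and the marrow libraries between -0.0124 and 0.0194. The same 5 had column totals of 1539153 to 2652290 against 682161 to 1015794, haemoglobin shares of 45.4 to 58.8% against 11.5 to 39.8%, and mitochondrial shares of the other RNA of 0.471 to 2.62% against 4.16 to 6.83%. Their summed level over a list of pancreatic marker genes was 170 to 282 against 39.1 to 66.6, nearly all of it the elastase Cela1. The other members, Cpa1, Prss2, Pnlip, Ctrb1 and Cel, were at most 0.698 in all 10 spleens. Cela1 was also at 6.64 to 27.8 in marrow, so the sum in the 5 libraries describes 1 gene. Because these libraries are unevenly spread over the 2 spleen groups, values are given with all libraries and, for the results that turn on them or lost their call, also without these 5, which leaves 2 spleens after 10 defeats (D4 and D5) and 3 rested spleens. Fits with a term for the 5, and without the rested spleen D1 as well as the 5, called 2680 and 1016 genes in the difference of the steps. A further fit kept the 5 as the only spleens of these groups, with 1 rested spleen. These fits do not settle what part the 5 have in the results, and why they stood apart was not tested.

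For many genes the change over the rested week differed between spleen and marrow. Of 14513 genes, the step differed between spleen and marrow for 1477 (10.2%) by limma at a Benjamini-Hochberg adjusted p under 0.05, with 699 higher in spleen (4.82%) and 778 lower (5.36%). Every count of called list members below is to be read against these shares, and a count of 1 or 2 says little about its list. The 699 had a median step of 0.56 in spleen and -0.39 in marrow, and the 778 a median step of -0.58 in spleen and 0.43 in marrow. The 2 steps had opposite signs in 96.6% of the former and 95.5% of the latter, against 47.0% of all genes tested, a share that the choice of genes by a difference favours. With each step tested in the same fit, only 23 of the 699 and 37 of the 778 were called in both tissues. In neither tissue were 153 and 182 of them called. The spleen step was the larger for 468 of the 699 and 497 of the 778. Equal column totals, a scaling that follows the haemoglobin share, gave 34 higher and 499 lower genes, and equal totals without the haemoglobin genes gave 142 and 1212. Without the 5 spleens that stood apart, 836 genes were higher and 1090 lower, and 860 of the 1477 were called again. The count ranged from 767 without the rested marrow D8 to 2962 without the spleen D4 after 10 defeats. It was 811 without the rested spleen D1, 883 without the rested marrow D3, 931 without the marrow D6 after 10 defeats and 2538 without the rested spleen D2.

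**Figure D1:**
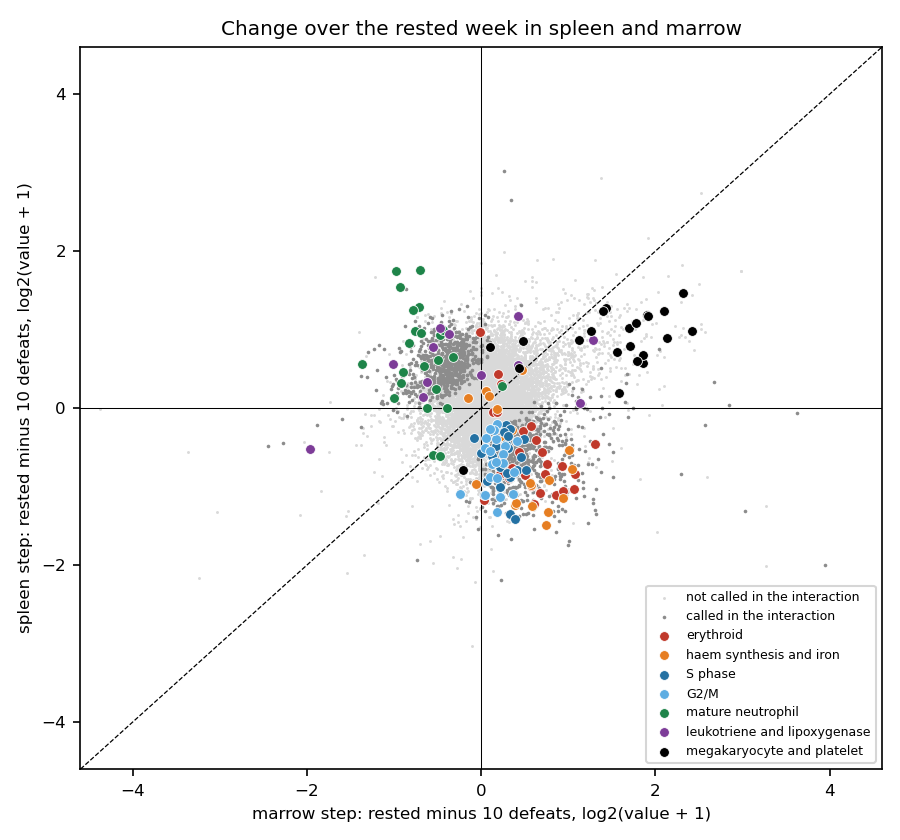
Each point is 1 of 14513 genes, with its step in marrow (x axis) and in spleen (y axis), both as rested minus 10 defeats on log2(value + 1). Dark grey points were called in the difference between the steps and lie to both sides of the dashed line of equal steps. Neutrophil genes lie at the upper left and erythroid and cell division genes at the lower right, while megakaryocyte genes lie at the upper right, where both steps are positive.

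Taken by itself, the spleen step was called for 2416 genes (16.6%; 1523 up and 893, 6.15%, down) and the marrow step for 716 (4.93%; 537 up and 179 down) when all libraries shared 1 estimate of the spread. When each tissue was fitted by itself the counts were 79 in spleen and 2700 in marrow, and library weights estimated as 1 per tissue were 0.534 for spleen and 1.81 for marrow. The number of genes called in a step therefore does not rank the tissues, and the difference of the steps is what is tested below. A step is the pull of 1 tissue in that difference, and its values are given as a description.

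Against unstressed mice, the genes chosen by the difference lay, by median, on opposite sides of control in the 2 tissues after 10 defeats. After rest these medians were nearer to the control level. The 778 genes of lower difference had a median 0.95 above control in spleen after 10 defeats and 0.37 above it after rest (0.74 and 0.31 without the 5 spleens), and in marrow they went from -0.56 to -0.13. The 699 genes of higher difference went from -0.66 to -0.11 in spleen (-0.43 to -0.05 without the 5 spleens) and from 0.66 to 0.26 in marrow. Over all genes the medians were -0.33 and -0.17 in spleen and -0.12 and -0.02 in marrow. Other sets did not have this pattern. Mature neutrophil genes were above control in both tissues, at 2.15 and then 2.40 in spleen and 1.29 and then 0.56 in marrow. Mature B cell genes were below it in both, at -2.06 and then -0.98 in spleen and -2.78 and then -1.38 in marrow. The medians of the 778 and the 699 rest on the same libraries that chose the genes, and no median here carries a test.

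**Figure D2:**
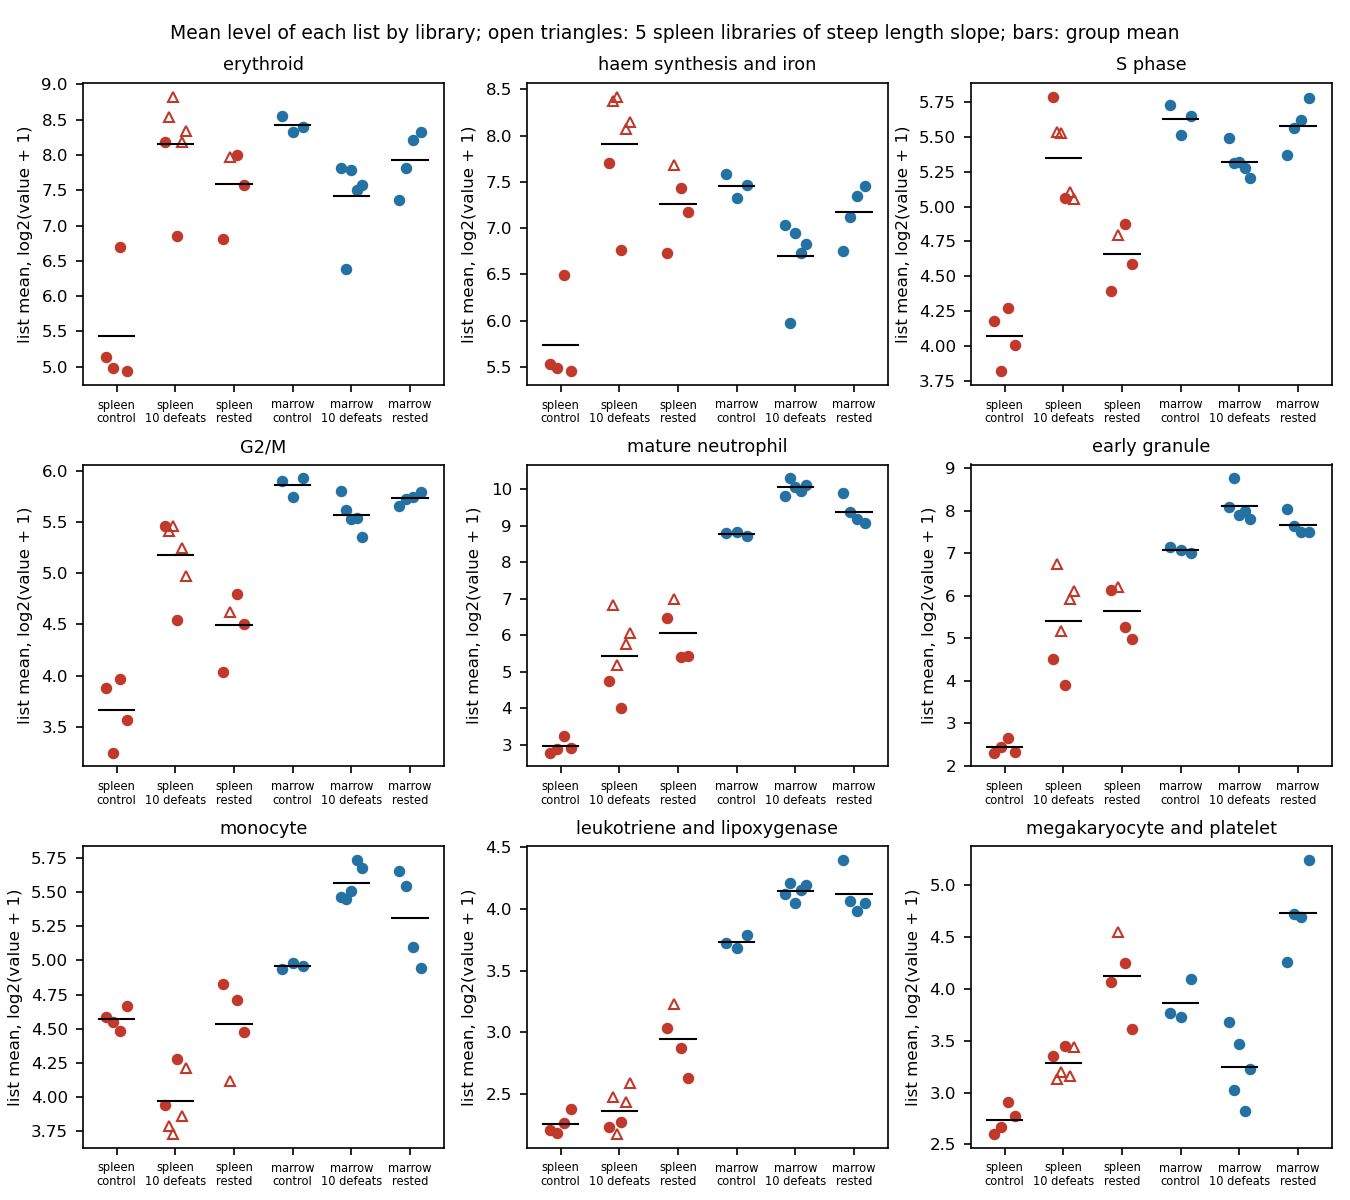
Mean of log2(value + 1) over the members of 9 gene lists, 1 point per library (red spleen, blue marrow, open triangles the 5 spleens that stood apart, bars the group means), for controls, after 10 defeats and after rest. The S phase means of the rested spleens (4.39 to 4.88) lie between those of the controls (3.82 to 4.27) and those after 10 defeats (5.06 to 5.79).

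Over the rested week red cell genes had negative steps in spleen and positive ones in marrow. Of 28 erythroid genes, 7 had a lower difference and none a higher one: Gata1, Epor, Tal1, Hemgn, Ermap, Add2 and Car1. The list's median difference was -1.21, from -0.75 in spleen and 0.53 in marrow, against 0.03, 0.14 and 0.08 over all genes. The list mean in the unstressed spleens was 4.94 to 6.69, while it lay between 6.85 and 8.83 after 10 defeats and between 6.80 and 8.001 after rest. In marrow it was 8.33 to 8.56 in controls, 6.39 to 7.82 after 10 defeats and 7.36 to 8.33 after rest, so the highest rested marrow reached the lowest control. All rested spleens lay above all unstressed ones.

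Gata1 (chrX:7959260-7978071, GRCm38), the master regulator of the erythroid lineage, measured 42.1, 73.4 and 99.5 (lowest, median and highest of 6) in spleen after 10 defeats and 23.8, 35.7, 43.1 and 28.96 in the rested spleens D1, D2, D3 and D8. In marrow it was at 38.5, 13.2, 33.4, 29.3 and 32.4 after 10 defeats (D5, D6, D7, D9 and D10) and at 33.2, 46.1, 58.5 and 75.02 after rest (D1, D2, D3 and D8). The rested spleens lay below the lowest spleen after 10 defeats, except that D3 was slightly above it, and 3 of the 4 rested marrows lay above every marrow after 10 defeats. The difference was -1.96 ± 0.43 (SE, adjusted p = 0.00549), from steps of -1.10 ± 0.30 in spleen and 0.86 ± 0.31 in marrow, and -1.79 (adjusted p = 0.0309) without the 5 spleens.

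Epor (chr9:21958897-21963506), the erythropoietin receptor, went from 30.7, 70.2 and 89.6 in spleen (lowest, median and highest of 6) to 24.01, 43.8, 31.1 and 27.3 after rest. Its marrow values were 35.1, 7.88, 26.03, 16.6 and 19.2 after 10 defeats and 28.8, 36.98, 45.3 and 55.9 after rest. The groups overlapped in spleen through D4, the lowest after 10 defeats, and in marrow through the rested D1, which lay under the highest marrow after 10 defeats. The difference was -2.09 ± 0.50 (SE, adjusted p = 0.00931), but -1.79 (adjusted p = 0.0626) without the 5 spleens, where the call was lost. Tal1, a partner of GATA1 in erythroid transcription complexes, differed by -1.82 ± 0.49 (SE, adjusted p = 0.0181), with -1.09 (adjusted p = 0.144) without the 5 spleens, and its call was lost without the rested spleen D1 (-1.63, adjusted p = 0.0532). Car1, a carbonic anhydrase of late red cell precursors, differed by -1.77 ± 0.55 (SE, adjusted p = 0.0367) and by -2.65 (adjusted p = 0.00196) without the 5. The call with all libraries was lost in 10 of the 19 fits that leave out 1 library (-1.81 to -1.52, adjusted p up to 0.0856 without the rested marrow D8). Ermap, a membrane protein of red cells, differed by -1.92 ± 0.52 (SE, adjusted p = 0.0185) and by -2.08 (adjusted p = 0.0268) without the 5, and its call was lost without the rested spleen D1 (-1.71, adjusted p = 0.0540).

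Other red cell genes did not pass. Hba-a1, an alpha globin, had a difference of 0.08 ± 0.72 (SE, adjusted p = 0.963), and Klf1, an activator of beta globin, one of -1.66 ± 0.57 (SE, adjusted p = 0.0584). Without the 5 spleens, 4 erythroid genes were called with a median of -0.88, and the spleen part shrank to a median of -0.28 while the marrow part stayed at 0.53. The count of 7 became 2 without the rested spleen D1 and 13 without the spleen D4 after 10 defeats. It was 4 without any 1 of the marrows D6 and D10 after 10 defeats, the rested marrows D2, D3 and D8, the spleen D7 after 10 defeats and the rested spleen D8.

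The haem pathway had the same signs. Of 19 genes of haem synthesis and iron handling, 9 had a lower difference and none a higher one, with medians of -1.55 for the difference, -0.92 in spleen and 0.47 in marrow. The 9 cover the cytosolic and mitochondrial steps (Alad, Uros, Urod and Cpox), the mitochondrial carriers Slc25a38 and Abcb10, the iron genes Slc11a2 and Steap3, and the biliverdin reductase Blvrb. Alas2, which makes the erythroid pathway's rate-limiting enzyme, had a difference of 0.17 ± 0.65 (SE, adjusted p = 0.906) and did not pass.

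Slc11a2, which carries iron across membranes as DMT1, measured 15.5, 19.4 and 22.6 in spleen after 10 defeats (lowest, median and highest) and 9.03, 11.1, 17.02 and 15.8 after rest. In marrow it measured 13.1, 3.65, 8.67, 8.32 and 7.92 after 10 defeats and 14.4, 15.6, 17.9 and 19.2 after rest. The marrow groups did not overlap, and the spleen groups did, through D4 and the rested D3 and D8. Its difference was -1.55 ± 0.30 (SE, adjusted p = 0.00227), and -1.45 (adjusted p = 0.0130) without the 5 spleens. Alad, the enzyme that joins aminolevulinate into a pyrrole, measured 105, 261 and 410.4 in spleen after 10 defeats and 77.5, 169, 137 and 94.8 after rest. Its marrow values were 110.3, 30.7, 84.8, 67.3 and 72.4 after 10 defeats and 83.5, 127, 150.1 and 179 after rest. Both pairs of groups overlapped. Its difference of -2.08 ± 0.50 (SE, adjusted p = 0.00931) became -1.60 (adjusted p = 0.0673) without the 5 spleens, and Cpox, which oxidizes coproporphyrinogen, went from -1.55 ± 0.39 (SE, adjusted p = 0.0121) to -1.21 (adjusted p = 0.0936). Steap3, the endosomal ferrireductase of red cell precursors, held at -1.82 ± 0.44 (SE, adjusted p = 0.00931) and -2.52 (adjusted p = 0.000321).

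The haem count depended on the libraries. It was 2 of 19 without the 5 spleens (median -0.68), and 4 without the marrow D6 after 10 defeats, the rested marrow D3 or D8 or the rested spleen D1. It was 5 without the marrow D9 or the spleen D6, D7, D9 or D10 after 10 defeats, the rested marrow D2 or the rested spleen D3 or D8. The haemoglobin share of the 5 spleens lies beside this count, and its part in it was not tested.

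Promoter sequences of 14 of the 16 different genes called in the erythroid and haem lists were held in the RefSeq table of GRCm38.p6, as 250 bases before to 50 bases after each gene's start. The letters AGATAA, the core that GATA factors read, were searched on both strands, where the reverse complement is TTATCT. They occurred in 5 of the 14 promoters (35.7%), in Epor, Tal1, Hemgn, Cpox and Steap3, against 3083 of all 27025 promoters (11.4%) and 707 of the 10441 tested genes with a promoter (6.8%), 48 of 612 in all genes of lower difference (7.8%), 31 of 557 in those of higher difference (5.6%) and 2 of 10 in the neutrophil genes called higher (20.0%). Gata1 itself held none in its window. The 3 shown are those of the receptor, the transcription factor and a haem enzyme whose steps were negative in spleen and positive in marrow, at chr9:21963527-21963826 (- strand), chr4:115056176-115056475 (+ strand) and chr16:58669958-58670257 (+ strand), each 5′ to 3′ on the gene's strand with the matching letters in capitals.
Epor: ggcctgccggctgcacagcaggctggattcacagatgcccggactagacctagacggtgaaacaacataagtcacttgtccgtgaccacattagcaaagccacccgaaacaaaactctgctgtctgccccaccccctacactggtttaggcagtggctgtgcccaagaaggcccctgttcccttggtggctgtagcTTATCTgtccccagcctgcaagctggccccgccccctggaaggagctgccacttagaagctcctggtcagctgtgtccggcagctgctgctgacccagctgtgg
Tal1: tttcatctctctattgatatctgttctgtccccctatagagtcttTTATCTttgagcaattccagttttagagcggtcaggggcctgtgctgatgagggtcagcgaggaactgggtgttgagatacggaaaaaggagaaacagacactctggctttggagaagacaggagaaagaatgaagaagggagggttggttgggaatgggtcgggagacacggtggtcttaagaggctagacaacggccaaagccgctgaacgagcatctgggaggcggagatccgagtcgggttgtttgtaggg
Cpox: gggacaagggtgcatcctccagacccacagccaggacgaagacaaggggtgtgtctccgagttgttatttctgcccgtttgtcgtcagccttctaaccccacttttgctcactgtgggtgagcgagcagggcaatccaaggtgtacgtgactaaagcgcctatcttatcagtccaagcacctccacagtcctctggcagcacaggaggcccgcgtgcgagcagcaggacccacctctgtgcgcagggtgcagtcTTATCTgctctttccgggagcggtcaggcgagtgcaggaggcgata
Counted from the first base shown, the match begins at base 197 in Epor, at base 46 in Tal1 and at base 255 in Cpox, so that only in Cpox does it lie after the gene's start. A match is a description of letters and no sign of binding. The other motifs searched (both strands), namely the cyclic AMP response element TGACGTCA, the AP-1 site TGANTCA, the E-box CACGTG and the STAT site TTCCNGGAA, occurred in 4.4, 2.6, 10.1 and 0.8% of the 612 promoters of the genes of lower difference and in 1.3, 6.3, 12.2 and 0.7% of the 557 of the genes of higher difference. Over the tested genes these shares were 3.1, 5.3, 9.8 and 1.3%.

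Sphingosine phosphate genes of red cells had the signs of the erythroid list. Sphk1 (chr11:116530925-116536674), the kinase that makes sphingosine 1-phosphate, measured 34.2, 73.2 and 99.5 in spleen after 10 defeats (lowest, median and highest) and 23.5, 42.6, 19.1 and 16.8 after rest. The marrow values were 12.5, 4.42, 11.1, 5.56 and 8.70 after 10 defeats and 12.1, 18.9, 22.3 and 30.1 after rest. Only the rested spleen D2 lay above the lowest spleen after 10 defeats, and only the rested marrow D1 lay under the highest marrow after 10 defeats. The difference was -2.69 ± 0.46 (SE, adjusted p = 0.000755), -2.34 (adjusted p = 0.00449) without the 5 spleens and -2.96 to -2.50 over the 19 fits that each leave out 1 library. Mfsd2b, which exports sphingosine 1-phosphate from red cells and platelets, measured 20.9, 23.9 and 39.5 in spleen after 10 defeats and 15.4, 20.0, 29.6 and 19.9 after rest. Its marrow values were 31.2, 7.45, 25.1, 14.2 and 17.7 after 10 defeats and 34.1, 47.5, 49.03 and 62.3 after rest. Its marrow groups did not overlap and its spleen groups did. The difference was -1.74 ± 0.41 (SE, adjusted p = 0.00896), and the marrow step of 1.40 ± 0.30 was larger than the spleen step of -0.34 ± 0.29.

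Cell division genes had negative steps in spleen and small positive ones in marrow. Of 22 S phase genes 12 had a lower difference and none a higher one, and all 22 estimates were negative, with a median of -0.92 (-0.62 in spleen and 0.29 in marrow). Of 22 G2/M genes 10 had a lower difference and none a higher one, with a median of -0.83 (-0.69 and 0.17), and again all 22 estimates were negative. Among the called S phase genes were the helicase subunits Mcm2, Mcm5 and Mcm7, the loader Cdc6, Gins1 and Gins2, the clamp Pcna, Pole, and the nucleotide enzymes Rrm1, Rrm2 and Tyms. The called G2/M genes were Ccnb1, Cdk1, Cdc20, Aurka, Aurkb, Bub1, Cenpf, Hmmr, Kif11 and Kif20a.

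Mcm7 (chr5:138164583-138172422), a subunit of the helicase that opens replication origins, measured 72.3, 94.2 and 117 in spleen after 10 defeats (lowest, median and highest) and 44.8, 58.2, 63.5 and 47.7 after rest. The marrow values were 86.2, 66.01, 73.9, 70.1 and 67.3 after 10 defeats and 84.9, 99.2, 97.6 and 105 after rest. The spleen groups did not overlap, and the marrow groups did through the rested D1 alone. Its difference was -1.20 ± 0.20 (SE, adjusted p = 0.000635), -1.24 (adjusted p = 0.00157) without the 5 spleens and -1.29 to -1.12 with each library left out. Ccnb1, the mitotic cyclin B1, measured 40.9, 88.1 and 147 in spleen after 10 defeats and 28.7, 54.1, 40.8 and 34.1 after rest. In marrow its values were 55.05, 50.9, 39.7, 43.1 and 36.2 after 10 defeats and 54.7, 60.0, 58.9 and 57.3 after rest. The marrow values were close together throughout, and the spleen groups overlapped only through D4. The difference was -1.46 ± 0.32 (SE, adjusted p = 0.00545) and -1.12 (adjusted p = 0.0118) without the 5 spleens.

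The S phase list gained calls without the 5 spleens, 19 of 22 with a median of -1.05, and the G2/M list lost some, 4 of 22 with a median of -0.74. Equal column totals left 7 in each. The G2/M count was 3 without the rested spleen D1, 5 without the rested marrow D2 or the marrow D10 after 10 defeats, and 6 without the rested marrow D8. Aurka, a spindle kinase, lost its call without the 5 spleens (-1.16 ± 0.28 (SE, adjusted p = 0.00936), then -0.76 (adjusted p = 0.0719)). Of 31 cytoplasmic ribosomal protein genes none was called in the difference.

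**Figure D3:**
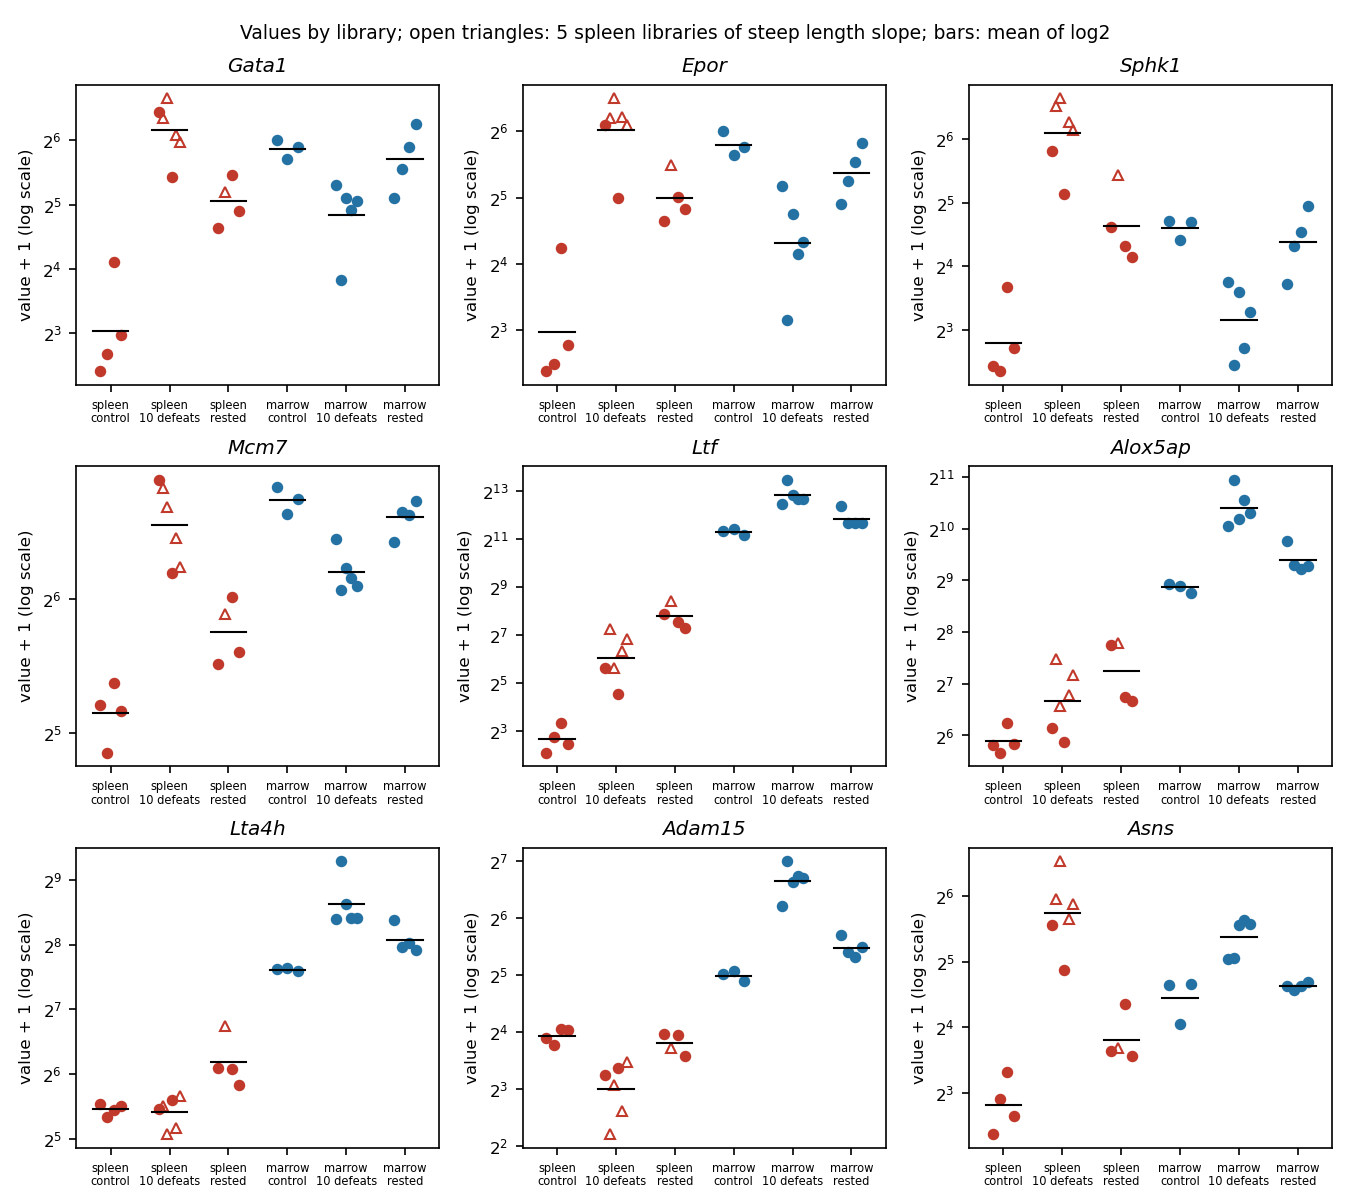
Value + 1 on a log axis for 9 genes, 1 point per library (red spleen, blue marrow, open triangles the 5 spleens that stood apart, bars the mean of log2). Gata1, Epor, Sphk1 and Mcm7 have lower means in the rested spleens and higher means in the rested marrows than after 10 defeats, and Ltf, Alox5ap, Lta4h and Adam15 the reverse. Asns has lower means after rest in both tissues.

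Neutrophil genes had the opposite signs, positive in spleen and negative in marrow. Of 23 mature neutrophil genes 9 had a higher difference and none a lower one, with a median of 1.37 (0.61 in spleen and -0.69 in marrow). They were Ltf, Lcn2, Ngp, Ly6g, Cd177, Lrg1, Pglyrp1, Itgam and Hdc. The list mean in spleen was 2.79 to 3.24 in controls, 4.01 to 6.84 after 10 defeats and 5.40 to 6.98 after rest. In marrow it was 8.71 to 8.83 in controls, 9.81 to 10.29 after 10 defeats and 9.07 to 9.88 after rest. So the marrow moved back toward its control level, and the rested spleens lay no closer to theirs than the spleens after 10 defeats did.

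Ltf (chr9:111019271-111042767), which makes lactoferrin of the secondary granules, measured 22.1, 63.9 and 149.6 in spleen after 10 defeats (lowest, median and highest) and 233, 341, 183 and 155 after rest, against 3.21 to 8.92 in controls. In marrow it was at 5603, 11275, 7152, 6480.0 and 6440.0 after 10 defeats and at 5226, 3188, 3230.4 and 3192 after rest, against 2274 to 2711 in controls. Neither pair of groups overlapped. A place among the largest differences required no overlap in spleen, the tissue of the larger step of Ltf. The difference was 2.73 ± 0.66 (SE, adjusted p = 0.00936), 3.47 (adjusted p = 0.00397) without the 5 spleens and 2.43 to 2.97 with each library left out. Lcn2, which makes the siderophore-binding lipocalin of the same granules, measured 55.5, 147 and 459.9 in spleen after 10 defeats and 651, 589, 324 and 322 after rest. In marrow its values were 6826, 13433, 7963, 7619.8 and 7521 after 10 defeats and 6535, 3851, 3746 and 3934 after rest. Only the spleen D6 after 10 defeats broke the separation of the groups. Its difference was 2.48 ± 0.62 (SE, adjusted p = 0.0114) and 3.21 (adjusted p = 0.00244) without the 5 spleens. In marrow the rested D1 was the highest of its group for both genes, and D6 was the highest after 10 defeats.

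The neutrophil result was larger without the spleens that stood apart. It then covered 16 of 23 genes, with a median of 1.90 and a spleen median of 1.38, and 11 of 14 early granule genes against 1 (Ctsc) with all libraries. Among all genes, 4.82% were called higher with all libraries, and 836 of 14334 without the 5 spleens. S100a8 and S100a9, which make the calprotectin of the neutrophil cytosol, passed without the 5 spleens and not with all libraries. S100a9 measured 608, 9906 and 50823 in spleen after 10 defeats (lowest, median and highest), with the 3 highest in D6, D9 and D10, and 9118, 47196, 2401 and 4191 after rest, with the highest in D2. Its difference was 1.24 ± 1.16 (SE, adjusted p = 0.547) with all libraries and 3.31 (adjusted p = 0.00149) without the 5, and that of S100a8 was 1.37 ± 1.13 (SE, adjusted p = 0.483) and 3.36 (adjusted p = 0.00201). With single libraries left out the neutrophil count was 4 without the marrow D6 after 10 defeats, the rested marrow D3 or D8 or the rested spleen D1, and at most 11. Quantile normalization also gave 4.

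Genes that make leukotriene B4 had the signs of the neutrophil list. Of 13 genes of the leukotriene and lipoxygenase pathway, 6 had a higher difference and 1 a lower one, with a median of 0.80 (0.57 in spleen and -0.37 in marrow). The list means did not overlap between spleens after 10 defeats (2.17 to 2.58) and rested spleens (2.63 to 3.23), whereas those of marrow did (4.05 to 4.21 and 3.98 to 4.40). The neutrophil list, whose values are given above, differed in the same libraries, and its part in the values of this pathway was not tested.

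In the order of the pathway, Alox5 (chr6:116410077-116461178), the lipoxygenase that starts leukotriene synthesis, measured 1.49, 1.75 and 4.03 in spleen after 10 defeats (lowest, median and highest) and 5.95, 9.59, 3.69 and 3.38 after rest. The marrow values were 100.8, 124, 106, 83.7 and 101.0 after 10 defeats and 113, 75.8, 71.9 and 63.6 after rest. The groups overlapped in both tissues, in marrow through the rested D1, which lay above 4 of the 5 marrows after 10 defeats. Its difference was 1.31 ± 0.33 (SE, adjusted p = 0.0113), and 0.99 (adjusted p = 0.113) after quantile normalization. Alox5ap (chr5:149264767-149288153), the protein that hands arachidonic acid to that enzyme, measured 58.02, 102 and 177 in spleen after 10 defeats and 214, 221, 106 and 100.6 after rest. In marrow its values were 1054, 1972, 1165, 1506 and 1258 after 10 defeats and 872, 626, 597 and 619 after rest. The marrow groups did not overlap, and the spleen groups did. The difference was 1.58 ± 0.39 (SE, adjusted p = 0.0104), and 2.06 (adjusted p = 0.00176) without the 5 spleens.

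Lta4h (chr10:93453411-93484875), the hydrolase that completes leukotriene B4, measured 32.5, 43.7 and 49.5 in spleen after 10 defeats and 67.5, 106, 66.2 and 55.8 after rest. It was at 335, 626, 394, 341 and 341 in marrow after 10 defeats and at 332, 249.8, 259 and 241 after rest. Neither pair of groups overlapped, and the unstressed spleens held 39.5 to 45.2 and marrows 192 to 197, so the rested spleens lay above every control. The difference was 1.33 ± 0.27 (SE, adjusted p = 0.00299), 1.03 (adjusted p = 0.0171) without the 5 spleens and 1.15 to 1.45 with each library left out. Ltb4r1, the high-affinity receptor of leukotriene B4, had a difference of 1.50 ± 0.47 (SE, adjusted p = 0.0383), which was lost in 9 of the 19 fits that leave out 1 library (1.18 to 1.49, adjusted p up to 0.0926 without the rested spleen D1). Cysltr1, a receptor of cysteinyl leukotrienes, had one of 0.80 ± 0.18 (SE, adjusted p = 0.00612).

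The 2 dipeptidases that trim leukotriene D4 to E4 had differences of opposite sign. Dpep2 had a higher difference of 0.96 ± 0.27 (SE, adjusted p = 0.0232), lost without the rested marrow D3 or D8 or the rested spleen D1 (0.77 to 0.88, adjusted p up to 0.0744), and Dpep1 a lower one of -1.07 ± 0.23 (SE, adjusted p = 0.00457). Dpep1 was at 0.0990 to 0.332 in spleen after 10 defeats and 0.248 to 0.335 after rest, near the floor of these values, and in marrow rose from 0.687, 0.329, 0.689, 0.322 and 0.651 to 1.38, 2.30, 2.95 and 3.07 with no overlap. Its difference is therefore nearly all the marrow step (1.13 ± 0.16, against 0.07 ± 0.16 in spleen). Alox15 (0.75 ± 0.37 (SE, adjusted p = 0.192)), Alox12 (-0.86 ± 0.49 (SE, adjusted p = 0.274)), Ltc4s (0.12 ± 0.33 (SE, adjusted p = 0.860)) and Ggt1 (1.43 ± 0.60 (SE, adjusted p = 0.123)), which serve other lipoxygenase products and the cysteinyl leukotrienes, did not pass. Equal column totals left 2 of the 6 higher genes and the fit of the 19 libraries alone also 2.

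Among 23 sphingosine phosphate and lipid receptor genes, 3 had a higher difference besides the lower Sphk1 and Mfsd2b. Ffar2, a receptor of short-chain fatty acids on neutrophils, differed by 1.54 ± 0.27 (SE, adjusted p = 0.00113), S1pr4, a sphingosine phosphate receptor of leukocytes, by 1.20 ± 0.29 (SE, adjusted p = 0.0103) and 0.80 (adjusted p = 0.0536) without the 5 spleens, and Ptafr, the receptor of platelet-activating factor, by 0.80 ± 0.21 (SE, adjusted p = 0.0164). The call of Ptafr was lost without the rested marrow D8 (0.66, adjusted p = 0.0570). That count of 3 was 7 without the spleen D4 after 10 defeats and 6 without the rested spleen D2. Of 23 phospholipase and fatty acid remodelling genes 2 were higher (Elovl5 and Lpcat2) and 3 lower (Fads3, Lpcat1 and Mgll), with a median of 0.02. Over all genes 4.82% were higher and 5.36% lower, so counts this small say little about the list as a whole. Lpcat2, which remakes platelet-activating factor, differed by 0.87 ± 0.26 (SE, adjusted p = 0.0299), lost without the marrow D10 after 10 defeats, the rested marrow D3 or D8 or the rested spleen D1 or D3 (0.71 to 0.83, adjusted p up to 0.0966), and Lpcat1 by -0.98 ± 0.22 (SE, adjusted p = 0.00690). Both calls were lost without the 5 spleens, at 0.62 (adjusted p = 0.103) and -0.65 (adjusted p = 0.0643). The 2 higher calls of this list varied from 0 without the rested marrow D3 or D8 or the rested spleen D1 or D3 to 6 without the spleen D4 after 10 defeats. Of 18 prostanoid genes, 1 was called, the prostacyclin receptor Ptgir (0.86 ± 0.22 (SE, adjusted p = 0.0141)), a share near the 4.82% of all genes called higher. It was 0.63 (adjusted p = 0.115) without the 5 spleens, where none of the list was called.

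Of 20 monocyte genes 5 were called, all with a higher difference: Vcan, Ly6c2, S100a4, Klf4 and Fn1. The median was 0.92 (0.57 in spleen and -0.17 in marrow), and 8 were called without the 5 spleens. Vcan, the proteoglycan versican of classical monocytes, fell in marrow from 20.3, 23.9, 18.3, 36.9 and 26.8 after 10 defeats to 5.99, 8.08, 2.55 and 2.45 after rest, with no overlap. In spleen it was low in both groups, 0.221 to 1.90 and 0.215 to 0.532. The difference was 1.82 ± 0.42 (SE, adjusted p = 0.00737), and 2.21 (adjusted p = 0.00503) without the 5 spleens. Ly6c2, the antigen that marks these monocytes and is also carried by neutrophils, measured 101.4, 127 and 247 in spleen after 10 defeats and 317, 307, 228 and 174 after rest. Its marrow values were 1453, 2053, 1435, 1388 and 1298 after 10 defeats and 1279.6, 986, 961 and 799 after rest, without overlap. It differed by 1.37 ± 0.32 (SE, adjusted p = 0.00861). The call of S100a4, a calcium-binding protein of motile cells, at 1.55 ± 0.44 (SE, adjusted p = 0.0237) was lost without the rested marrow D8 or the rested spleen D1 (1.40 to 1.50, adjusted p up to 0.0652). The monocyte count of 5 became 2 without the rested marrow D8. It became 3 without the rested marrow D3, the rested spleen D1 or D8, the marrow D9 or the spleen D7 after 10 defeats. Ccr2, the receptor that brings monocytes out of marrow, had a difference of 1.30 ± 0.45 (SE, adjusted p = 0.0586) with all libraries and 2.21 (adjusted p = 0.00185) without the 5 spleens.

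Among the inflammatory genes called in the difference, Osm and Prok2 fell in marrow and had smaller steps in spleen. Lcn2, also in the neutrophil list, had its larger step in spleen (1.54 ± 0.43, against -0.94 ± 0.45 in marrow). The steps of Casp1 were small in both tissues (0.33 ± 0.14 in spleen and -0.43 ± 0.14 in marrow). Of 25 genes of interleukin 1 signalling and inflammation 4 were called, all higher: Osm, Casp1, Prok2 and Lcn2. Osm, the cytokine oncostatin M, measured 15.5, 30.96, 22.1, 14.2 and 29.4 in marrow after 10 defeats and 9.05, 6.67, 5.96 and 4.59 after rest, against 4.54 to 5.16 in controls. In spleen it was at 1.76 to 3.07 after 10 defeats and 1.61 to 2.63 after rest. The marrow groups did not overlap, and the difference was 1.46 ± 0.28 (SE, adjusted p = 0.00199), from steps of -0.14 ± 0.19 in spleen and -1.60 ± 0.20 in marrow. Casp1, which cleaves the interleukin 1 beta precursor, differed by 0.75 ± 0.20 (SE, adjusted p = 0.0154), and Prok2, a chemokine-like peptide of neutrophils, by 1.97 ± 0.64 (SE, adjusted p = 0.0475), which was lost in 13 of the 19 fits that leave out 1 library (1.50 to 2.01, adjusted p up to 0.110 without the rested marrow D8). Il1b itself had a difference of -0.05 ± 0.63 (SE, adjusted p = 0.973). Fos (1.71 ± 0.71 (SE, adjusted p = 0.120)) and Junb (1.11 ± 0.38 (SE, adjusted p = 0.0599)), early genes of the stress response, did not pass in the difference. Their marrow steps were called, at -3.03 ± 0.51 (SE, adjusted p = 0.00054) for Fos and -1.36 ± 0.28 (SE, adjusted p = 0.00276) for Junb. The spleen steps, at -1.32 ± 0.49 for Fos and -0.25 ± 0.265 for Junb, were not called.

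Several of the largest positive differences came with a negative step in marrow, most of them outside the lists. The choice of these genes required no overlap in the tissue of the larger step, so that separation is no result. Adam15 (chr3:89338542-89349996), a membrane metalloprotease, had the smallest adjusted p of all genes. It measured 3.62, 7.94 and 10.1 in spleen after 10 defeats (lowest, median and highest) and 14.6, 12.2, 14.5 and 10.97 after rest. Its marrow values were 72.6, 126, 98.3, 105 and 103 after 10 defeats and 51.1, 41.1, 38.98 and 43.9 after rest. Neither pair of groups overlapped. The unstressed tissues held 12.7 to 15.5 in spleen and 28.6 to 32.5 in marrow, so that both came closer to control, from opposite sides. The difference was 1.98 ± 0.28 (SE, adjusted p = 0.000353), 1.70 (adjusted p = 0.000523) without the 5 spleens and 1.82 to 2.09 with each library left out. Cebpb, a transcription factor of emergency granulocyte production, differed by 2.02 ± 0.45 (SE, adjusted p = 0.00567) with a marrow step of -1.31 ± 0.32. Ctsc, the protease that activates granule proteases and a member of the early granule list, differed by 1.79 ± 0.33 (SE, adjusted p = 0.00148) with a marrow step of -1.38 ± 0.24, and Olfm1, a secreted glycoprotein, by 1.98 ± 0.35 (SE, adjusted p = 0.000932) with one of -1.23 ± 0.25.

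An eosinophil ribonuclease had the largest positive difference among the named genes, and it lay in spleen. Ear1 (chr14:43818765-43875517), an eosinophil-associated ribonuclease, was at 0.323 to 1.18 in unstressed spleens, at 1.78, 5.63 and 10.6 after 10 defeats (lowest, median and highest) and at 45.6, 99.4, 38.2 and 28.96 after rest. Every rested spleen was above every spleen after 10 defeats, which a place among the largest differences required. In marrow it was at 86.1, 56.2, 59.6, 255 and 135 after 10 defeats and at 163, 75.7, 193 and 88.5 after rest, and the groups overlapped. The spleen step was 3.02 ± 0.39, the marrow step 0.27 ± 0.40 and the difference 2.75 ± 0.56 (SE, adjusted p = 0.00346), which was 3.30 (adjusted p = 0.00167) without the 5 spleens. Ear6, a gene of the same family, differed by 2.31 ± 0.64 (SE, adjusted p = 0.0207), and its call was lost without the rested marrow D8 (2.14, adjusted p = 0.0562). These genes are near-identical copies, so reads may be shared between them in the authors' counting. Of the 10 eosinophil genes no other was called (3 in all without the 5 spleens), and the list median was 0.67 (1.24 in spleen and 0.31 in marrow).

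Megakaryocyte genes had positive steps in both tissues, and the difference between the tissues was called for few. Of 22 genes 14 were called up in the spleen step (background 10.5% of all genes) and 16 in the marrow step (background 3.7%), with median steps of 0.88 and 1.70. Without the 5 spleens the spleen calls were 0 and the spleen median 0.53, while 19 were called in marrow, and equal column totals also left 0 in spleen. In the difference 2 were called, both lower, among them Vwf, von Willebrand factor of platelets and vessels (-1.39 ± 0.46 (SE, adjusted p = 0.0482)). Without the 5 spleens its difference was -1.14 (adjusted p = 0.138). The call of Vwf was lost in 13 of the 19 fits that leave out 1 library (-1.47 to -1.07, adjusted p up to 0.150 without the rested marrow D8). The count of 2 was 6 without the marrow D5 after 10 defeats or the rested marrow D1, 8 without the rested spleen D2 and 0 without the marrow D6 or D9 after 10 defeats, the rested marrow D3 or D8 or the rested spleen D1 or D8. Pf4, a platelet chemokine, had steps of 0.57 ± 0.45 in spleen and 1.85 ± 0.47 in marrow and a difference of -1.28 ± 0.65 (SE, adjusted p = 0.214).

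Few genes of B cell precursors and of stroma were called, nearly all of them through a positive step in marrow. Of 20 B precursor genes 3 had a lower difference: Rag2, which cuts antigen receptor genes (-0.87 ± 0.28 (SE, adjusted p = 0.0463)), Cecr2 (-1.57 ± 0.45 (SE, adjusted p = 0.0247)) and Myb, a transcription factor of progenitors (-0.77 ± 0.22 (SE, adjusted p = 0.0223)). Their spleen steps were 0.17, 0.08 and -0.00, and their marrow steps 1.04, 1.65 and 0.77. Over the whole list the steps were mostly positive in both tissues. The median was 0.68 in spleen (19 of 20 estimates positive) and 1.32 in marrow (20 of 20), and that of the difference was -0.47. Without the 5 spleens the spleen median was 0.12. The call of Rag2 was lost in 14 of the 19 fits that leave out 1 library (-0.91 to -0.68, adjusted p up to 0.111 without the rested marrow D2), that of Cecr2 lost without the rested marrow D2 or the rested spleen D1 (-1.49 to -1.46, adjusted p up to 0.0575) and that of Myb lost without the rested spleen D1 or D8 (-0.70 to -0.69, adjusted p up to 0.0626). Rag2 was at -0.92 (adjusted p = 0.0923) without the 5 spleens, while Cecr2 and Myb kept their calls. Without the rested spleen D1 none of the list was called. Among 25 stroma and matrix genes 3 were lower and 1 higher, against 5.36% and 4.82% of all genes. Ibsp, the bone sialoprotein of osteoblasts, was at 0 in all 10 spleens and in marrow rose from 2.69, 1.67, 3.89, 5.73 and 3.55 to 9.09, 9.47, 15.1 and 24.3 without overlap, with a difference of -1.74 ± 0.38 (SE, adjusted p = 0.00540). With no level in spleen, that difference is the marrow step alone and does not compare the tissues. Ebf3, a transcription factor of marrow stromal cells that make CXCL12, differed by -0.70 ± 0.14 (SE, adjusted p = 0.00276), and Adipoq, the fat cell hormone adiponectin, by -1.55 ± 0.47 (SE, adjusted p = 0.0331), which was lost in 8 of the 19 fits that leave out 1 library (-1.55 to -1.34, adjusted p up to 0.0874 without the rested marrow D8) and was -1.38 (adjusted p = 0.136) without the 5 spleens. In spleen Adipoq was near the floor, at 0.178 to 0.771 after 10 defeats and 0.147 to 0.648 after rest. Madcam1, an adhesion molecule of the splenic marginal sinus, was the higher one at 0.96 ± 0.32 (SE, adjusted p = 0.0481), lost in 15 of the 19 fits that leave out 1 library (0.80 to 0.98, adjusted p up to 0.120 without the rested spleen D1). It was 0.47 (adjusted p = 0.182) without the 5 spleens.

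Among the genes of largest negative difference outside the lists, several separated the groups in both tissues. Their choice required no overlap in the tissue of the larger step, so only separation in the other tissue was open. The share of all genes tested that separate in this way is not given here. Hpn (chr7:31098725-31115290), a membrane serine protease, measured 16.2, 18.4 and 22.2 in spleen after 10 defeats (lowest, median and highest) and 9.43, 10.5, 6.80 and 4.29 after rest. In marrow its values were 3.81, 1.46, 3.21, 2.27 and 2.29 after 10 defeats and 5.76, 6.31, 7.67 and 11.3 after rest. No rested library overlapped with those after 10 defeats in either tissue. The difference was -2.49 ± 0.39 (SE, adjusted p = 0.000499), -2.61 (adjusted p = 0.00196) without the 5 spleens and -2.65 to -2.27 with each library left out. C1qtnf12, the secreted adipolin, differed by -2.33 ± 0.38 (SE, adjusted p = 0.000628), and Sfrp4, a secreted antagonist of Wnt ligands, by -2.20 ± 0.35 (SE, adjusted p = 0.000499), each with no overlap in either tissue. Tlcd4, a membrane protein, differed by -2.09 ± 0.33 (SE, adjusted p = 0.000499), Clcn2, a chloride channel, by -2.15 ± 0.43 (SE, adjusted p = 0.00276), and Gfi1b, a repressor needed in red cell and platelet precursors, by -1.99 ± 0.47 (SE, adjusted p = 0.00869).

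The calls of some lists moved with the 5 spleens that stood apart and with other settings. Of 13 mitochondrially encoded genes 5 were higher in the difference (mt-Nd6, mt-Atp6, mt-Co1, mt-Co2 and mt-Co3), with a median of 1.75 (1.11 in spleen and -0.65 in marrow). Without the 5 spleens 10 were called, while the spleen median was 0.35. Equal column totals called none and quantile normalization 1. The count was 2 without the rested spleen D8, 3 without the rested D1 and 12 without the rested D2, and 8 to 11 without the spleen D4, D5 or D9 after 10 defeats. In mt-Nd6, a subunit of complex I, the spleen values were 68.2, 405 and 671 after 10 defeats (lowest, median and highest) and 871, 635, 819 and 1494 after rest. In marrow they were 1849, 2998, 2218, 2533 and 1985 and 1115, 1088, 1358 and 1488. Neither tissue's groups overlapped except through the rested spleen D2, which was below the highest spleen after 10 defeats. The difference was 2.39 ± 0.52 (SE, adjusted p = 0.00560) and 1.64 (adjusted p = 0.00210) without the 5 spleens.

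Asns (chr6:7675169-7693254), asparagine synthetase and a target of the integrated stress response, had negative steps in both tissues. With all libraries the spleen step was called (-1.93 ± 0.22) and the marrow step was not (-0.74 ± 0.23 (SE, adjusted p = 0.055)). Without the 5 spleens both were called, at -1.37 (adjusted p = 0.0069) in spleen and -0.74 (adjusted p = 0.0114) in marrow. Asns measured 28.4, 53.5 and 91.5 in spleen after 10 defeats (lowest, median and highest) and 11.5, 11.9, 19.5 and 10.8 after rest. Its marrow values were 31.9, 32.2, 46.2, 48.6 and 46.8 after 10 defeats and 23.8, 22.6, 23.8 and 24.9 after rest. Neither pair of groups overlapped. The difference was -1.19 ± 0.32 (SE, adjusted p = 0.0179) with all libraries and -0.62 (adjusted p = 0.208) without the 5 spleens, and Shmt2, a mitochondrial enzyme of serine use, went from -1.01 ± 0.26 (SE, adjusted p = 0.0155) to -0.46 (adjusted p = 0.261). Of the 18 genes of that response 2 were lower and 2 higher in the difference, the latter Atf5 (1.14) and Nupr1 (1.06), each with a larger step in marrow. The call of Nupr1 was lost without the rested marrow D3 or D8 or the rested spleen D1 (0.95 to 1.001, adjusted p up to 0.0603), and that of Atf5 lost in 12 of the 19 fits that leave out 1 library (0.93 to 1.23, adjusted p up to 0.0812 without the marrow D9 after 10 defeats). The 2 lower calls were 5 without the spleen D4 or D5 after 10 defeats. Of 20 cholesterol synthesis genes 6 were higher, among them Cyp51 (1.03 ± 0.24 (SE, adjusted p = 0.00713), 0.79 (adjusted p = 0.0567) without the 5 spleens) and Msmo1 (1.09 ± 0.30 (SE, adjusted p = 0.0188)). The call of Msmo1 was lost without the rested spleen D1 (0.997, adjusted p = 0.0522). The list held 1 call without the 5 spleens and none with equal totals. It was also 1 without the rested spleen D1, 2 without the marrow D6 after 10 defeats or the rested marrow D3, and 3 without the rested marrow or spleen D8.

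**Figure D4:**
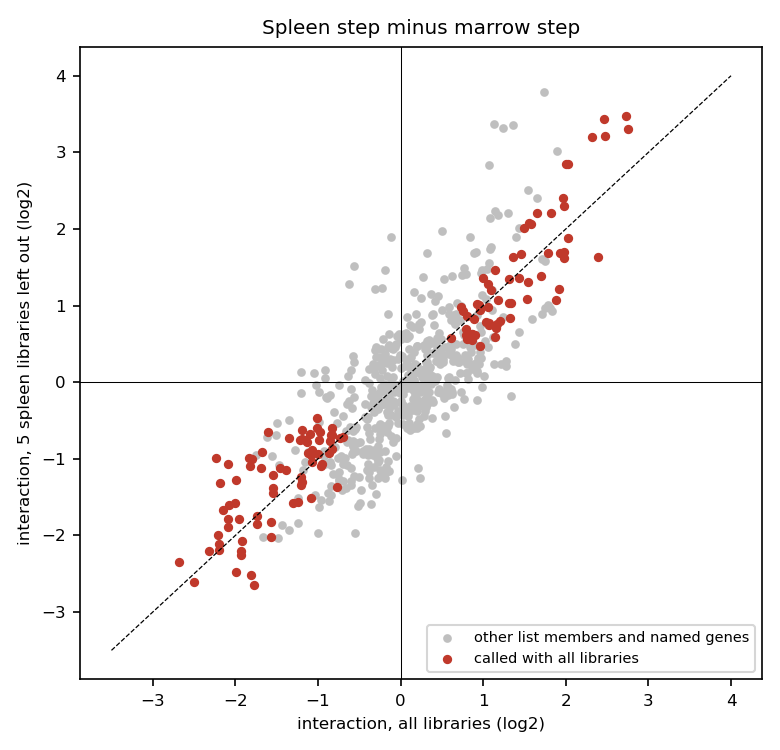
Difference of the steps (spleen minus marrow, log2) with all libraries on the x axis and without the 5 spleens that stood apart on the y axis, 1 point per list member or named gene, with the dashed line of equal values. All genes called with all libraries (red) kept their sign, and the largest neutrophil differences lie above the line.

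Other lists held few calls or none. Mature B cell (21 genes), T cell (25), natural killer (16), MHC class II (11), endothelial (16) and ribosomal protein (31) genes had no call in the difference, while without the 5 spleens 4 endothelial genes were lower, and 2 natural killer and 3 ribosomal protein genes higher. Their median differences ran from -0.30 for mature B cells to 0.51 for T cells, and the T cell median in spleen went from 0.82 to 0.25 without the 5 spleens. A difference that misses the threshold does not show that the tissues moved alike. The interferon response list had 2 higher genes of 24 (Gbp2 and Zbp1), and the glucocorticoid response list 2 of 22 (Sgk1 and Cdkn1a). Both are small counts beside the 4.82% of all genes called higher. Gbp2 at 0.77 (adjusted p = 0.108) and Sgk1 at 0.61 (adjusted p = 0.0916) lost their calls without the 5 spleens. With single libraries left out these counts ran from 0 to 5 and from 0 to 4, with 0 without the rested marrow D8. The glucocorticoid targets Fkbp5 (0.91 ± 0.57 (SE, adjusted p = 0.336)) and Tsc22d3 (1.05 ± 0.43 (SE, adjusted p = 0.117)) did not pass. Dendritic cell genes numbered 2 higher (Flt3 and Cst3) and 1 lower (Zbtb46) of 15, of which Flt3 was at 0.59 (adjusted p = 0.115) without the 5 spleens, and the higher count ran from 0 without the rested spleen D1 to 4 without the spleen D4 after 10 defeats.

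**Figure D5:**
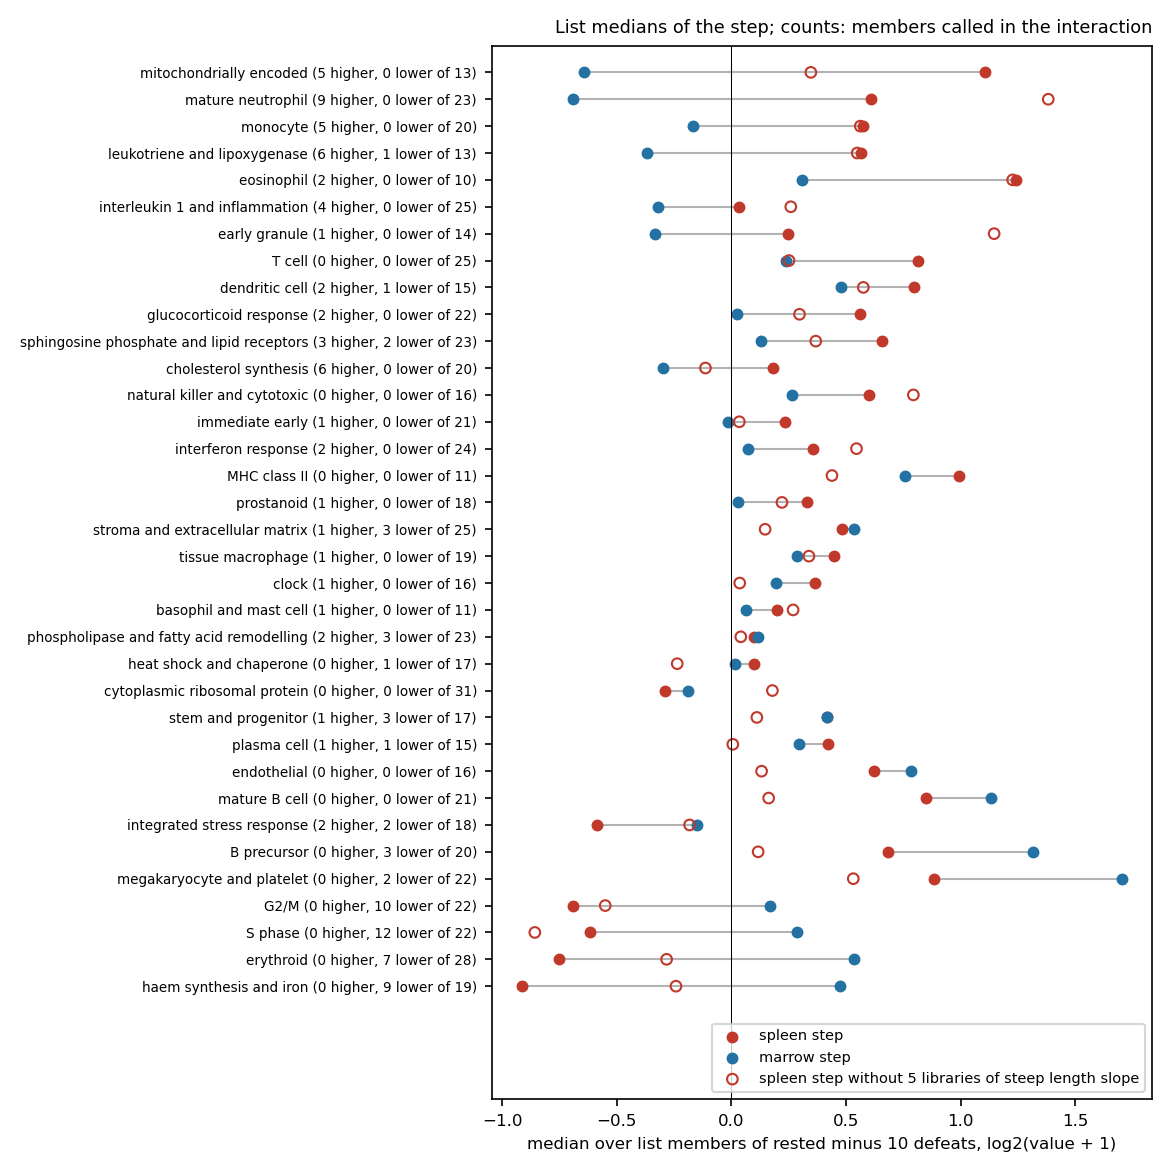
Median step (rested minus 10 defeats, log2) over the members of each of 35 lists in spleen (red), in marrow (blue) and in spleen without the 5 libraries that stood apart (open circles), sorted by the median difference; the counts give members called higher or lower in the difference. Erythroid, haem and cell division lists have a negative spleen and a positive marrow median, and neutrophil, monocyte and leukotriene lists the reverse.

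Firmness differed between these genes. Of the 84 named genes past the threshold, all kept their sign in each setting in which they could be fitted, 57 kept their call whichever single library was left out and 16 kept it in all settings tried. Of 131 called list members and named genes, 84 were also called without the 5 spleens and 47 were not. Among the latter, with no value given above, were Abcb10, Add2, Aurkb, Blvrb, Bub1, Cdk1, Cenpf, Elovl5, Fn1, Hemgn, Hmmr, Itgam, Kif11, Lrg1, Mgll, Rrm2, Slc25a38, Urod and Uros. The 16 kept in all settings were Hpn, C1qtnf12, Ces2g, Sfrp4, Sdsl, Tlcd4, Aldh1a7, Cracd, Ebf3, Dpep1, Sphk1, Mcm7 and Ccnb1 among the lower and Adam15, Ear1 and Ltf among the higher. Of these, Dpep1 was near the floor in spleen, so its call rests on marrow. The settings share most of their libraries, so kept signs are no independent evidence.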

How the data were processed

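RNA of whole spleen and of flushed femoral marrow was prepared with a NucleoSpin kit and polyA-selected, and libraries were made with the TruSeq stranded mRNA kit, per the labels' protocols. The submitters' processing notes name kallisto 0.46.1, sleuth and the mouse build GRCm38, without their roles. The authors deposited 1 table of 35885 genes by 37 libraries, whose signal values are scaled abundances on a linear scale. The exact quantity and its scaling are not given in the sources used here. Because the values are not counts, a linear model was used in place of a count test.

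The 14513 genes that reached a value of 1 in 2 or more libraries were kept, 1 was added to each value as a pseudocount, and log2 values were fitted with limma 3.58.1 (R 4.3.3; mean-variance trend, robust empirical Bayes) with 10 group means over all 37 libraries, which share 1 estimate of the spread. The difference of the steps and each tissue's step were contrasts of this fit, with Benjamini-Hochberg adjustment over all genes kept and a threshold of 0.05. The fit was tested on simulated data in which both tissues had the same spread and no library stood apart. That test therefore does not cover the unequal spread of spleen and marrow. GENCODE M21 supplied positions and lengths and covered 99.3% of the gene identifiers. The promoter sequences came from RefSeq.

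The named genes were up to 12 of the largest positive and 12 of the largest negative differences among called genes whose highest mean of the 4 groups was 2 or more and no overlap in the tissue of the larger step. Predicted models, pseudogenes and antigen receptor segments were left out of these. Up to 3 members of smallest p were added for each list with a called member, and a fixed set. Other list members, such as Car1, Ermap, Cpox, Ltb4r1, Dpep2, S1pr4 and Ptafr, were added after their values were seen. A few list members are counted but not reported by name here. The comparison, its lists and this rule were chosen with earlier results of these data known.

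The table gives no read totals, so depth was inferred from how low values step in 9751 genes with a single transcript longer than 600 bases, assuming fragments of 200 bases. It was 6.53 to 27.4 M reads per library (median 12.9 M), with 64.7 to 73.7% of low values within 0.1 of a whole read. Between 10926 and 12380 genes per library had a value of at least 1. The labels call the samples biological replicates. Alternatives in scaling, filter, pseudocount, samples, weights, replicate block and single libraries left out were planned. Those added after seeing the data were 4 treatments of the libraries that stood apart or of the spread (leaving out rested spleen D1 as well, a term for the 5 spleens, those spleens as the only spleens, and 1 weight per tissue), separate fits of each tissue, equal totals without haemoglobin, and list medians without the 5 spleens.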

Additional observations from a re-analysis of the deposited data

Results flagged for a closer look

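In 1477 genes the step over the rested week differed between the tissues, by the test of the difference itself. Within single groups, 11 of 116 tests found the highest or, for Epor, the lowest library far from the others by Dixon's criterion, where chance gives about 1 in 20.

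In marrow after 10 defeats these were all in D6: Ltf at 11275, Lcn2 at 13433, Lta4h at 626 and Ly6c2 at 2053. In rested marrow they were all in D1: Ltf at 5226, Lcn2 at 6535 and Alox5ap at 872. Among the spleens, D4 after 10 defeats held the lowest Epor value, 30.7, the rested D3 held Asns at 19.5, and the rested D2 held S100a9 at 47196 and the highest column total, 2652290. The rested spleen D2 is 1 of the 5 spleens that stood apart.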

How the results depend on the processing

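The difference changed sign in none of the 131 called list members and named genes, whereas the balance of higher and lower calls turned over in some settings given below. The count of genes whose step differed, 1477, was 379 with the 19 libraries alone, 533 with equal totals, 7531 with library weights and 2680 with a term for the 5 spleens. With single libraries left out it ran from 767 (rested marrow D8) to 2962 (spleen D4 after 10 defeats). The spleen count, 2416, was 348 with the 19 libraries, 410 with equal totals, 1575 without a filter, 8737 with library weights and 408 without the 5 spleens. It was 137 without these and D1, 1539 with the term, 343 with these as the only spleens, 126 with 1 weight per tissue, 955 with equal totals without haemoglobin and 79 in a fit of spleen alone, and ran from 791 (rested D8) to 5591 (D4 after 10 defeats) with single libraries left out. The marrow count, 716, was 329 with the 19 libraries, 349 with equal totals, 4734 with library weights, 2317 without the 5 spleens and 2522 without these and D1. It was 1884 both with the term and with these as the only spleens, 3009 with 1 weight per tissue, 1694 with equal totals without haemoglobin and 2700 in a fit of marrow alone. With single libraries left out it ran from 292 (D6 after 10 defeats) to 874 (D5 after 10 defeats). The causes were not tested. Weights of 1 per tissue were 0.534 for spleen and 1.81 for marrow, so the shared estimate of the spread is below that of the spleens and above that of the marrows.

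Equal totals, with and without haemoglobin, moved the median difference of all genes from 0.03 to -0.07 and -0.14, and library weights to 0.17. Splits of higher against lower calls were 699 and 778 in the difference, 34 and 499 with equal totals and 142 and 1212 without haemoglobin. With library weights they were 4744 and 2787. In spleen they were 1523 and 893, and 42 and 368 with equal totals, 464 and 491 without haemoglobin, 151 and 257 without the 5 spleens, 38 and 41 in spleen alone and 879 and 1224 with quantile normalization. In marrow they were 537 and 179, and 321 and 28 with equal totals, 1627 and 67 without haemoglobin, 276 and 232 with quantile normalization and 1716 and 984 in marrow alone. At an unadjusted p under 0.05 there were 3706 genes in the difference, 5058 in the spleen step and 2739 in the marrow step.

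With the replicate number as a replicate block 2153 genes differed. Same-numbered spleens and marrows had correlations of their deviations from 0.009 to 0.223 after 10 defeats and from -0.204 to 0.350 after rest. Different-numbered ones ran from -0.234 to 0.082 and from -0.295 to 0.236. After 10 defeats the same number gave the highest correlation for the spleens D5, D6, D7 and D10 but not D9, and after rest for D1 alone. Whether a number marks 1 mouse was not settled, and the main fit did not treat the numbers as pairs. Of 4842 settings of 131 called genes, 3866 kept the call and 976 lost it. Estimated depth limits genes near a value of 1, where a step rests on few reads.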
